A study of Drosophila melanogaster with 4 samples.

Results

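Strong compact NURF301 sites are places where the chromatin remodelling subunit NURF301 gave high enrichment over a short stretch of the fly genome. They were chosen by their measured values: rows of the combined region list on X, 2L, 2R, 3L, 3R or 4 with a score of 1.1 or more and a width under 4500 bp that overlapped a row of each replicate list by 1 bp or more. There were 456 such sites among 8224 rows of the combined list, or among 4570 compact regions, the rows of those 6 chromosomes under 4500 bp that both replicates contained. The other 4114 compact regions, with scores under 1.1, were the comparison regions, so 9.98% of all compact regions were strong. The score was read from its values as a log2 ratio of scaled read numbers, taken here as ChIP over input, which the files do not state. In that reading 1.1 stands for 2.14 times the input.

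NURF, the nucleosome remodelling factor, slides nucleosomes with the ATPase ISWI. NURF301, also known as Enhancer of bithorax, is its largest subunit and holds the complex together. It binds modified histone tails and sequence-specific factors such as GAGA factor, contacts that bring the remodeller to promoters and other regulatory DNA. In flies the complex is known for its roles in homeotic gene expression, in the response to ecdysone and in the structure of the male X chromosome.

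The embryos were wild type, of the strain Oregon-R, and 14 to 16 h old, and as whole animals with many tissues they gave an average over cell types, in which fewer bound cells and less binding per cell cannot be told apart. All 4 samples shared this strain, age and fixation in 1.8% formaldehyde, and no other genotype or treatment was part of the design. ChIP with the NURF301 antibody Q2602 was done in 2 replicates, each with an input of starting chromatin, and whether separate collections were used is not in the labels, so the spread between replicates may be technical. The lists hold regions and scores, so whether the antibody found its target cannot be checked from them. Regions are named by FlyBase r5 positions, counted from 1, because the gene annotation at hand is on another build, and no sequence of these sites was read.

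The chosen sites had a median score of 1.21 in the combined list, from 1.1 to 1.81, against a median of 0.66 in the comparison regions. The medians stand for 2.32 and 1.58 times the input. The middle 50% of the members lay between 1.15 and 1.31, so most sites were close to the limit and few were far above it. Scores just inside and just outside the limit formed a continuous series: the 5 lowest members scored from 1.1 to 1.1017 and the 5 highest comparison regions from 1.0985 to 1.0996. In replicate 1 those 5 members scored from 0.94 to 1.12 and those 5 comparison regions from 0.79 to 1.18, so the limit did not separate them in single replicates. Across the width limit, the 5 widest members measured 4371 to 4497 bp, and the 5 narrowest strong regions beyond it measured 4503 to 4595 bp. Beyond the width limit lay 73 further regions of both replicates with scores of 1.1 or more, among 427 regions of 4500 bp or more.

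The strongest member lay on 2R at 18797646 to 18800778, with a width of 3133 bp. It scored 1.75 in replicate 1 and 2.06 in replicate 2, and ranked 2 in each replicate list. The replicates placed it in 2685 and 2788 bp. Its nearest other strong site was 158 kb away, while an ordinary row of the combined list lay 363 bp from its edge.

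On 3R, 2 of the 3 highest-scoring members faced each other near the end of the arm. The site at 26911068 to 26913666 scored 1.70 in replicate 1 and 1.87 in replicate 2, and the site at 26884744 to 26888454 scored 1.62 and 1.81. They were 22.6 kb apart, and for the first of them that partner was also the nearest row of any kind. The other, at 4838542 to 4842468, was the second highest of the arm, scored 1.55 and 1.92, and had a strong site 21.1 kb away and a region of over 4500 bp 3309 bp from its edge.

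The highest member of 3L, at 245274 to 249280, scored 1.61 in replicate 1 and 1.90 in replicate 2 and had another strong site 12.6 kb away. The second, at 198032 to 201458, went the other way between replicates, with 1.76 and then 1.71, so that it ranked 1 in replicate 1 and 19 in replicate 2. A region of 4500 bp or more began 1095 bp from it.

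The highest member of the X, at 10365678 to 10370032, scored 1.60 and 1.88 in replicates 1 and 2. It was 290 kb from any other strong site. The next on the X, at 6425836 to 6429342 with 1.58 and 1.76 and at 1208460 to 1211570 with 1.53 and 1.67, were also over 100 kb from the nearest strong site. The highest sites of 2L were as isolated: the site at 2363172 to 2366704, with 1.67 and 1.71, was 212 kb from the next, and the site at 7532594 to 7536770, with 1.55 and 1.71, was 272 kb from it.

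On 2L the third site, at 7826038 to 7829844, scored 1.41 and 1.57 and lay 13.7 kb from another strong site. On 2R the second site, at 17088 to 19954, scored 1.51 and 1.66, and the third, at 11266988 to 11270472, scored 1.44 and 1.74. These 2R sites were 109 kb and 397 kb from their nearest strong neighbours.

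Chromosome 4 held 4 strong compact sites among 40 compact regions. The site at 377854 to 382050 scored 1.14 in replicate 1 and 1.29 in replicate 2, and the site at 1132586 to 1135284 scored 1.12 and 1.22. At 1315716 to 1317894 the replicates gave 1.41 and 1.48 over only 1523 and 1354 bp, while the combined region, at 2179 bp the narrowest of all members, scored 1.21. The fourth, at 212464 to 216242, fell from rank 99 in replicate 1 (1.31) to rank 666 in replicate 2 (1.18). None of the 4 had another strong site within 100 kb.

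The sites were then located by arm. The X had 98 of them, 3R had 115, 2R had 91, 3L had 82 and 2L had 66. The density per Mb of chromosome was 4.37 for the X and 4.30 for 2R, followed by 3R with 4.12, 3L with 3.34 and 2L with 2.87. The share of compact regions that were strong ranged from 7.96% on 2L (Wilson interval 6.31% to 10.0%) to 12.5% on the X (10.3% to 14.9%). Wilson intervals here are at 95% and describe counting of regions only, which are not replicates.

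Each large arm was divided into 5 segments of equal length. Strong sites made up a larger share of compact regions in the outer segments, the first and the last, than in the middle. In the outer segments 219 of 1791 compact regions were strong, or 12.2% (Wilson interval 10.8% to 13.8%), against 233 of 2739, or 8.51% (7.52% to 9.61%), in the middle 3 segments. This grouping of segments was made after the values were seen and was not tested. The outer share was higher on the X (17.2% against 9.50%), on 2R (12.8% against 8.36%), on 3R (13.3% against 8.68%) and on 3L (10.6% against 7.86%), but not on 2L (7.65% against 8.18%). The highest single value was 20.0%, 26 of 130 regions, in the last segment of the X, which lies next to the centromere. The lowest was 3.45%, 4 of 116 regions, in the fourth segment of 2L.

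**Figure D1:**
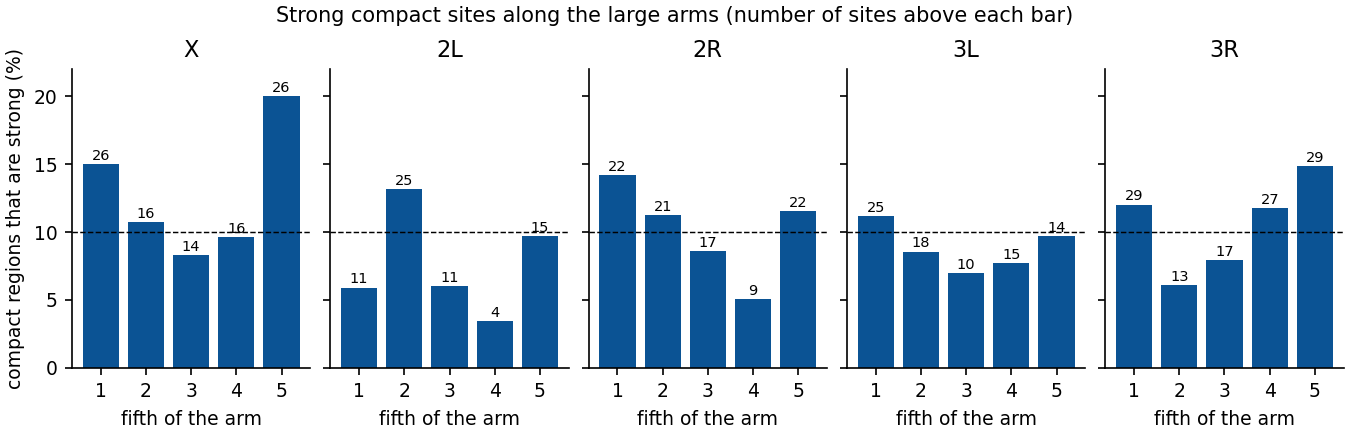
Share of compact regions that were strong (%, y axis) in each of 5 equal segments of the 5 large arms (x axis, in order of coordinate), with the number of strong sites above each bar and the share over all compact regions, 9.98%, as a dashed line. Bars of the first and last segments rise above the line on X, 2R and 3R, while 2L peaks in its second segment.

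Strong sites were wider than comparison regions, although the limit kept both under 4500 bp. Strong sites had a median width of 3053 bp in the combined list, against 2462 bp for comparison regions. In the replicate lists the medians were 2782 bp and 2931 bp for strong sites, a mean of 2856 ± 106 bp (SD, n = 2), against 2139 bp and 2289 bp for comparison regions, a mean of 2214 ± 106 bp (SD, n = 2). Strong sites were thus wider by 642.5 bp within replicate 1 and by 642 bp within replicate 2, and both replicates of the strong sites lay above both of the comparison regions. Width and score come from the same reads, so they are not independent measures, and no test was run.

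The relation between strength and width was not a steady rise. Of 2015 compact regions of 2000 to 2499 bp, 46 were strong, or 2.28%. The share was 14.3% from 2500 bp and 22.7% from 3000 bp, then 18.8% from 3500 bp and 16.9% from 4000 bp, with overlapping Wilson intervals over those last 3 classes. Of regions of 4500 bp or more in both replicates, 17.1% scored 1.1 or more. Among the 193 compact regions under 2000 bp there were 0 strong sites, which allows a share of up to 1.55% if 3 counts are taken as the limit of a count of 0, while the Wilson interval ends at 1.95%. Within the members, score and width were only loosely related, with a Spearman's rho of 0.16 across 456 sites, against 0.54 across the 4114 comparison regions, given as descriptions because the score limit narrows the range and both values come from the same reads.

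**Figure D2:**
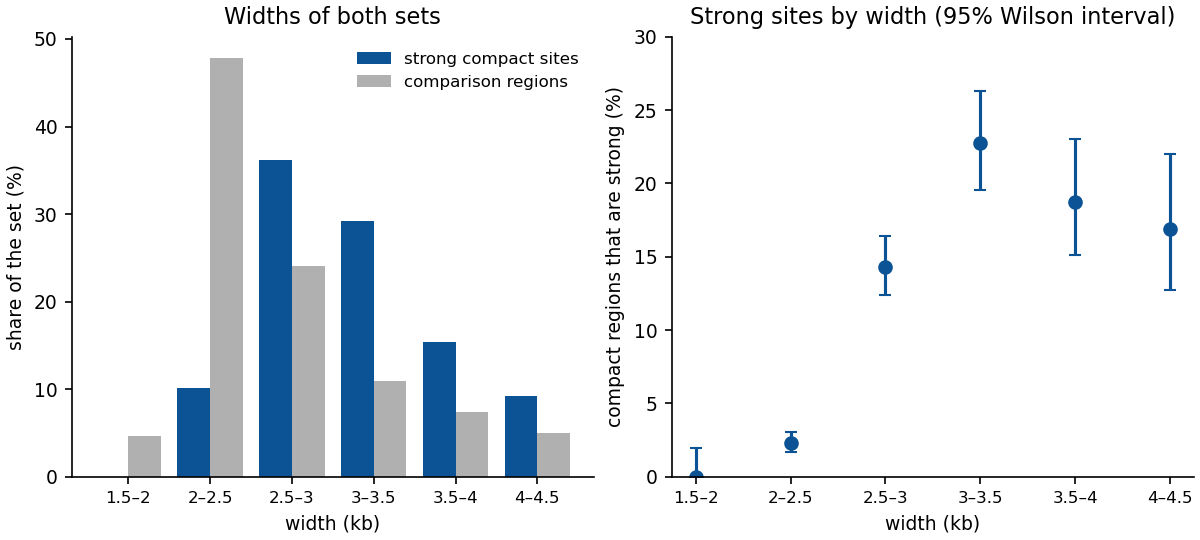
Left, share of strong compact sites and of comparison regions (%, y axis) in 500-bp classes of width (kb, x axis). Right, percent of compact regions in each class that were strong, with 95% Wilson intervals; the share rises from 2.28% at 2 to 2.5 kb to 22.7% at 3 to 3.5 kb and is no higher in wider classes.

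The narrowest members after the one on chromosome 4 included a pair on the X with unequal replicates. The site at 2218794 to 2221040, of 2247 bp, scored 0.85 in replicate 1 and 1.37 in replicate 2. The site at 18543336 to 18545602, of 2267 bp, scored 0.88 and 1.49. In contrast the site on 2L at 20196136 to 20198344, of 2209 bp, scored 1.204 and 1.185, and the site on 3R at 2732910 to 2735160, of 2251 bp, scored 1.09 and 1.15.

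The replicate lists placed strong sites at nearly the same positions. Of the 456 sites, 453 were found as a single row in each replicate list, or 99.3%, close to the 98.6% of all compact regions for which this held. The midpoints of these rows differed by a median of 56 bp between replicates, against 72.5 bp for comparison regions. Starts differed by a median of 95 bp and ends by 82 bp, and in 90% of the sites the midpoints lay within 164 bp. Row widths in the replicates were closely ordered, with a Spearman's rho of 0.90 over strong sites and 0.72 over comparison regions, as descriptions. The 3 exceptions lay on 3R at 9206276 to 9209510 and 12256102 to 12259814 and on the X at 1987122 to 1991586. On the X, the combined region of 4465 bp scored 1.11, below both replicate rows, which scored 1.196 over 2329 bp and 1.65 over 2706 bp. These 3 regions are named because of this count.

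Strong sites ranked near the top of both replicate lists, as their selection requires. Their median rank was 288.5 of 5491 rows in replicate 1 and 272.5 of 6229 rows in replicate 2, which are the 94.8th and 95.6th percentiles, a mean of 95.2 ± 0.62 (SD, n = 2). The top 10% of replicate 1 held 361 of them and the top 10% of replicate 2 held 419, against 10.1% and 11.6% of all compact regions. Of the 4114 comparison regions, 19, or 0.46%, were in both of these top sets. Both sets held 327 strong sites, and 3 strong sites were in neither, on 2L at 8971902 to 8975962, on 2R at 5983356 to 5985738 and on 3R at 1416052 to 1419196. Their ranks lay between 558 and 651, and they are named because of this count. The lowest rank of a member was 1554 in replicate 1 and 1330 in replicate 2. The replicates entered the combined score, so these ranks describe the sites and do not test them.

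The replicates did not reach the score limit equally often. In replicate 2, 454 of the 456 sites scored 1.1 or more, while in replicate 1 only 333 did. Of all compact regions, 17.4% reached 1.1 in replicate 2 and 8.93% in replicate 1. Of the 4114 comparison regions, 42 reached it in both replicates (1.02%), 301 in replicate 2 alone (7.32%) and 33 in replicate 1 alone (0.80%). Among the strong sites, both replicates reached 1.1 at 331, replicate 2 alone at 123 and replicate 1 alone at 2. Those 2 sites lay on 2L, at 1609970 to 1612650 with 1.24 in replicate 1 and 1.04 in replicate 2, and at 16285828 to 16289748 with 1.12 and 1.01, and they are named because of this count.

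The median score of strong sites was 1.19 in replicate 1 and 1.33 in replicate 2, a mean of 1.26 ± 0.105 (SD, n = 2). Per site, the score of replicate 2 was higher than that of replicate 1 by a median log2 difference of 0.16, or 1.12 times, against 0.075, or 1.05 times, at comparison regions. Replicate 2 was higher at 406 of the 456 sites, or 89.0%, where 70.3% of all compact regions were higher in replicate 2. Across classes of the combined score, which itself holds both replicates, the excess was larger at higher scores: it was -0.059 at compact regions with combined scores under 0.3, 0.073 from 0.5 to 0.7, 0.14 from 0.9 to 1.1, 0.16 from 1.1 to 1.3 and 0.20 from 1.3 to 1.5. It was 0.16 again over the 29 sites from 1.5 upward. Within the strong sites the excess did not follow the mean score of the replicates (Spearman's rho -0.0089 over 456 sites, against 0.31 over comparison regions, as descriptions of values from the same reads). The same direction was present on each large arm, with medians at strong sites from 0.15 on 2L to 0.19 on 2R. Recovered read numbers per strong site were larger in replicate 2 for both ChIP and input. Their medians were 1003.5 ChIP and 363.5 input reads, against 709.5 and 277.5 in replicate 1. The part of depth in the score excess of replicate 2 was not tested.

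**Figure D3:**
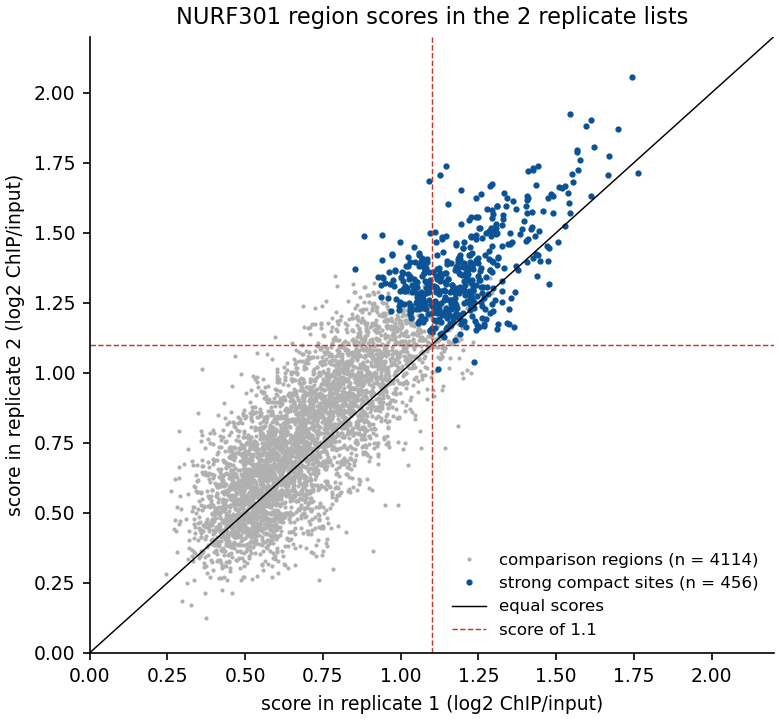
Score in replicate 1 (log2 ChIP/input, x axis) against score in replicate 2 (y axis) for 456 strong compact sites and 4114 comparison regions, one point per region. Most strong sites lie above the line of equal scores. Left of the dashed line at 1.1 in replicate 1, but above it in replicate 2, lie 123 strong sites and 301 comparison regions.

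The widest disagreements between replicates were all in this direction. The site on the X at 18543336 to 18545602, described above, had the largest difference, 0.61. On 2R, the site at 4814456 to 4816892 scored 1.09 and 1.69 and moved from rank 509 to rank 23, and the site at 3353028 to 3355400 scored 0.94 and 1.49. On the X, the site at 18676356 to 18679206 scored 1.15 and 1.74, and on 3L the site at 22448052 to 22450536 scored 1.13 and 1.71. In the opposite direction the largest difference was -0.20. For scale, the counting error of the difference between replicates, from recovered read numbers, had a median of 0.135 at strong sites and 0.163 at comparison regions. A difference of more than 2 such errors was present at 93 strong sites, or 20.4%, against 6.27% of comparison regions. The median excess of replicate 2, 0.16 at strong sites and 0.075 at comparison regions, was not removed. With unlike errors and unlike excess, these shares do not compare the reproducibility of the 2 sets. Within the strong sites the 2 replicates were less alike in order than within the comparison regions, with a Spearman's rho of 0.46 against 0.76, as descriptions over a narrower range of scores.

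Behind the chosen scores were more ChIP reads, as far as the recovered numbers go. On the autosome arms the median was 263 ChIP reads per kb at strong sites and 182 at comparison regions in replicate 1, and 341 against 230 in replicate 2, over regions whose read numbers needed no multiplying. Input reads in the same regions had medians of 102 and 102 per kb in replicate 1 and 126 and 128 in replicate 2. On the X the input medians were 75.8 and 76.5 in replicate 1 and 91.0 and 96.0 in replicate 2. Input densities far from the typical value are partly excluded by the way read numbers were recovered, so a shared input level is in part built in.

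Clustering of strong sites with each other was weak. Another strong compact site lay within 20 kb of 111 of the 456 sites, or 24.3% (Wilson interval 20.6% to 28.5%), against 18.3% of comparison regions (17.1% to 19.5%) and 18.9% of all compact regions. These 111 sites formed 52 linked groups, in which each site was counted for its neighbour. The Wilson interval takes them as separate counts and is too narrow, so its distance from that of comparison regions is no evidence of clustering. The nearest compact neighbour was itself strong for 61 of the 456 sites, or 13.4% (10.6% to 16.8%). This held for 9.99% of comparison regions (9.11% to 10.9%), an overlapping interval, and for 10.3% of all compact regions. With a score limit of 1.0 both differences disappeared: 29.4% against 29.3% had a strong site within 20 kb, and 16.2% against 16.5% had a strong nearest compact neighbour. With higher limits they kept their direction: 14.4% against 10.2% and 10.0% against 5.63% at 1.2, and 7.38% against 4.99% and 4.92% against 2.77% at 1.3. Only 250 sites reached 1.2 and 122 reached 1.3, so the shares at 1.3 stand for few sites. By arm, the X had the highest share of strong sites with another within 20 kb, 32.7%, against 21.9% of its comparison regions. The corresponding values were 26.1% and 17.6% on 3R, 24.4% and 18.9% on 3L, 18.2% and 14.9% on 2L and 18.7% and 18.8% on 2R. For a strong nearest compact neighbour they were 22.4% and 12.5% on the X, 13.4% and 10.1% on 3L and 12.2% and 11.5% on 3R. On 2R they were 11.0% and 8.33%, and on 2L the direction was reversed, with 6.06% and 7.60%. The autosome arms alone gave 22.3% and 17.6% within 20 kb, and 11.0% and 9.50% for the nearest compact neighbour. None of these differences was tested.

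The excess of strong neighbours was largest at short distance. Of compact regions less than 2 kb from a strong site, 15.7% were strong (22 of 140 pairs). Of those at 2 to 5 kb, 15.9% were strong (24 of 151 pairs). Around comparison regions the shares were 8.98% and 8.68%. At 5 to 10 kb the shares were 12.6% and 10.9%, and at 10 to 20 kb 11.1% and 9.81%. Smaller differences were present farther away, with 11.3% and 9.58% at 20 to 50 kb, 10.8% and 10.2% at 50 to 100 kb, 10.1% and 10.0% at 100 to 200 kb and 11.1% and 9.77% at 200 to 500 kb. The large arms varied widely around strong sites, from 0% to 22.2% below 2 kb and from 7.14% to 26.7% at 2 to 5 kb. Each pair of neighbouring strong sites is counted from both ends, so the excess below 5 kb rests on few distinct pairs.

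**Figure D4:**
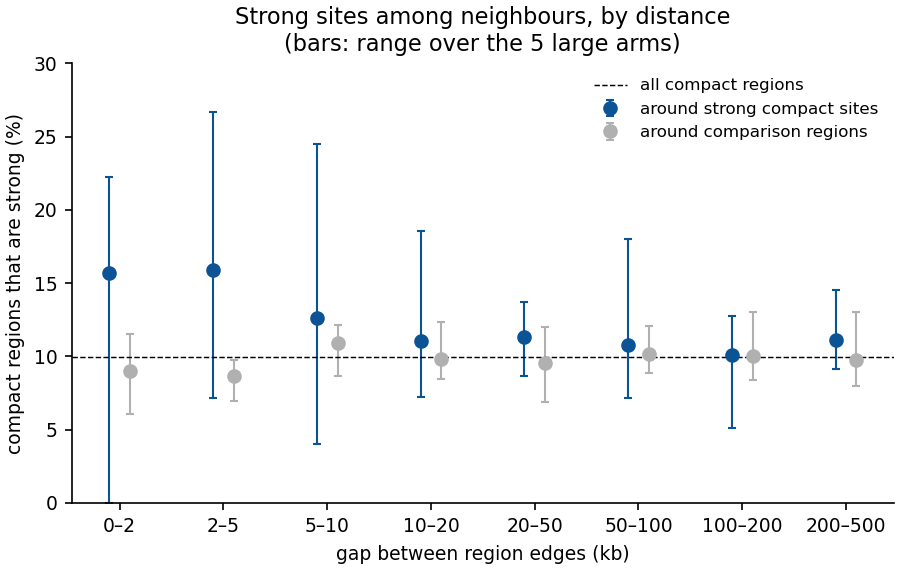
Percent of compact regions that were strong (y axis) by their distance in kb, in unequal classes (x axis), from a strong compact site or from a comparison region; bars span the 5 large arms and the dashed line is the share over all compact regions, 9.98%. Points around strong sites stand highest below 5 kb, at 15.7% and 15.9%, and lie between 10.1% and 12.6% beyond.

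When sites were joined over gaps of up to 20 kb, 345 of the 456 stood alone, 96 formed 48 pairs, and 15 formed the 4 larger groups of 3 to 5 sites. Of those 4 groups, 3 lay on the X, while 3R held 15 of the pairs, the X and 3L 10 each, 2R 7 and 2L 6.

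The largest group spanned 52.1 kb of the X, from 1766454 to 1818588, with 5 strong compact sites and 1 region of 4500 bp or more in between. The first, at 1766454 to 1769200, scored 1.28 in replicate 1 and 1.305 in replicate 2, and the third, at 1792220 to 1795682, scored 1.22 and 1.40. The fourth, at 1800882 to 1804340, scored 1.201 and 1.45. The second and the fifth differed more between replicates, with 0.94 and 1.40 at 1782968 to 1785616 and 1.11 and 1.502 at 1815772 to 1818588. No member of this group was among the 3 highest-scoring sites of the X, and their combined scores ranged from 1.18 to 1.28.

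The second group, on the X from 11016728 to 11050708, held 4 sites in 34.0 kb, all 3775 bp wide or wider. Their scores in replicates 1 and 2 were 1.295 and 1.36 at 11016728 to 11020502, and 1.29 and 1.501 at 11029130 to 11033090. They were 1.24 and 1.31 at 11040788 to 11044776 and 1.48 and 1.45 at 11046628 to 11050708. The nearest region of 4500 bp or more was over 190 kb away.

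A group of 3 on 2R, from 4800362 to 4816892, was the most compact of the larger groups, at 16.5 kb. Its sites scored 1.33 and 1.64 at 4800362 to 4803396, 1.114 and 1.305 at 4808958 to 4811452, and 1.09 and 1.69 at 4814456 to 4816892, so all were higher in replicate 2. The third group of the X, from 18665010 to 18684644, had 3 sites that scored 1.12 and 1.28 at 18665010 to 18667622, 1.15 and 1.74 at 18676356 to 18679206, and 1.29 and 1.51 at 18681002 to 18684644. Among the 48 pairs the highest total score belonged to 3L, where the site at 6734168 to 6738102, with 1.57 and 1.79, lay 6.14 kb from a site at 6744240 to 6747250 with 1.03 and 1.34.

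**Figure D5:**
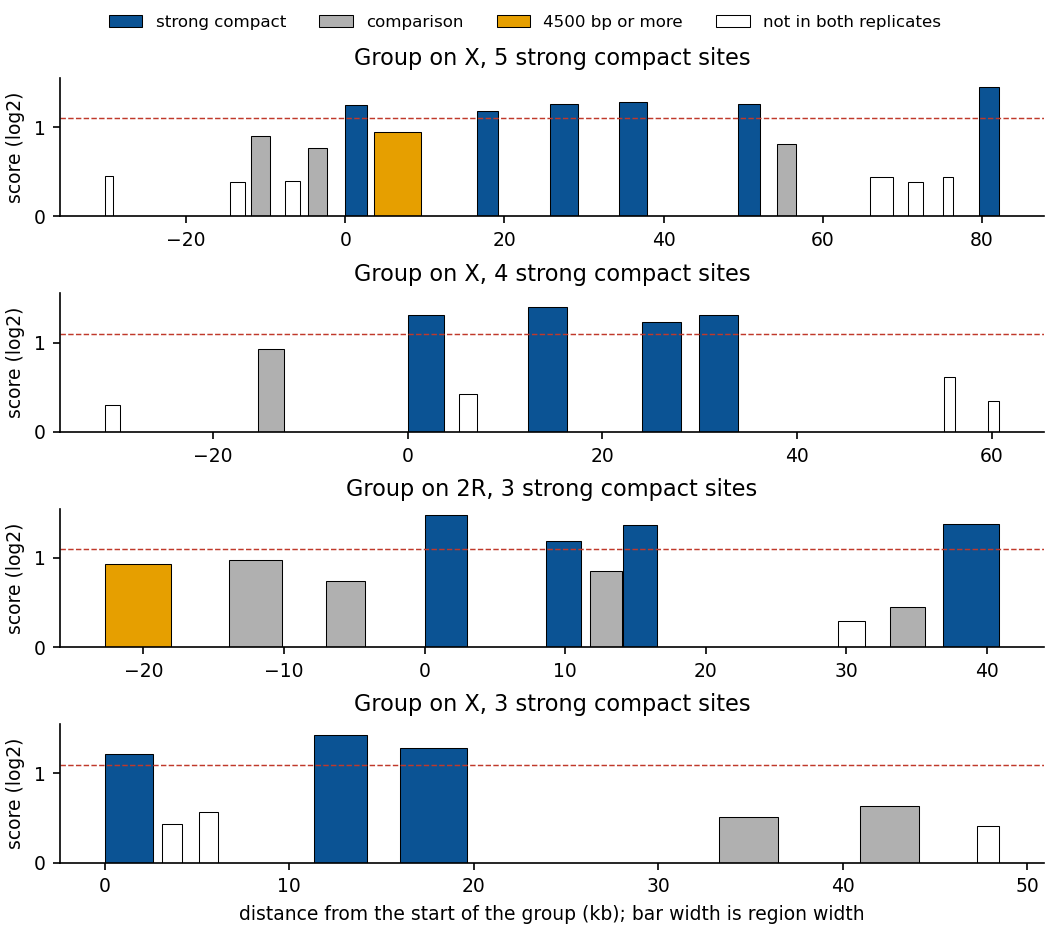
Region scores (log2, y axis) by distance in kb from the start of each of the 4 largest groups (x axis), with bars as wide as the regions and the score limit of 1.1 as a dashed line. Strong compact sites stand beside much weaker regions, several of them not in both replicates, in and around each group.

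At the other extreme, 196 of the 456 sites, or 43.0%, were over 100 kb from the next strong site, close to the 43.2% of comparison regions at that distance. The most distant lay on 2L at 11515446 to 11518548, 822 kb from another, with 1.23 in replicate 1 and 1.39 in replicate 2. On the X, the site at 13305988 to 13308300 (0.99 and 1.26) was 814 kb from the next and the site at 12488456 to 12491816 (1.07 and 1.37) was 800.1 kb from it. On 2L, the sites at 15497648 to 15500588 (1.18 and 1.21) and 16285828 to 16289748 (1.12 and 1.01) were each other's nearest, 785 kb apart.

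Distance from other strong sites did not mean distance from other regions. The nearest row of any kind in the combined list lay a median of 2631 bp from a strong site, against 2514 bp from a comparison region, and 327 of the 456 sites, or 71.7%, had one within 5 kb, against 70.6% of comparison regions. That neighbour was present in both replicates for 67.3% of strong sites and 66.2% of comparison regions, and in neither for 16.0% and 17.3%. Its median score was 0.58 beside strong sites and 0.55 beside comparison regions. In the replicate lists the nearest compact neighbour had a median score of 0.72 and 0.80 beside strong sites, a mean of 0.76 ± 0.056 (SD, n = 2), against 0.70 and 0.78 beside comparison regions, a mean of 0.74 ± 0.062 (SD, n = 2). The difference was 0.028 within replicate 1 and 0.019 within replicate 2, of the same sign and small beside the shift between replicates. A region of 4500 bp or more lay within 20 kb of 92 strong sites, or 20.2% (Wilson interval 16.7% to 24.1%), against 19.1% of comparison regions and 19.2% of all compact regions. On each of these measures the values beside strong sites and beside comparison regions were close.

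High scores also occurred outside the chosen set. On the 6 chromosomes, 17 rows of the combined list scored 1.1 or more without being found in both replicates, 16 of them in neither. Their median width was 1003 bp, and 14 were narrower than 1301 bp, the narrowest row of the replicate lists. In lowest terms the denominators of their ratios ranged from 1 to 32 with a median of 4, which bounds the input read numbers from below only.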

How the data were processed

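The data were 3 deposited lists of enriched regions, one per ChIP replicate and one for the replicate set, on FlyBase r5 per the file headers. Per the submitters' processing notes, Bowtie 0.12.7 was among the tools. The peak caller and threshold, and how the replicate set was formed, were not given in the sources used here. The deposited score is a log2 ratio, as read from its values: on the linear scale and after division by a list constant, 100% of the scores were fractions of whole numbers whose denominators did not exceed 3000 (relative tolerance 2e-10). Read numbers were estimated as the multiple of each fraction whose denominator per kb was nearest to the usual density for that chromosome class (the X, chromosome 4 or the rest). Numerators were taken as ChIP and denominators as input, which the files do not state. The multiple was 1 for 58.7% of rows of replicate 1 and 58.3% of replicate 2. Median read numbers per row were 405 ChIP and 219 input in replicate 1, and 520 and 285 in replicate 2. Library totals are not in the lists, so depth outside the regions is unknown. Counting errors and Wilson intervals cover counting error only.

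A member's replicate value is that of the row with the largest overlap. Gaps were measured between region edges, and sites were joined over gaps of 20 kb or less. No test was run, because regions are not replicates and the members were selected by score. Regions were named by rule: the 3 highest on each large arm, all on chromosome 4, the 5 largest groups, the 5 largest replicate differences, the 5 narrowest, the 5 most distant and those beside the limits. Where 3 or fewer sites made up a count, they were named after their values were seen. The members and measures were chosen with earlier results of these data known. Alternatives were other limits of score, width and gap, 50% reciprocal overlap, a required overlap with only 1 of the replicate lists, merging of rows closer than 500 bp, and the autosome arms alone. A planned comparison of sequence and annotation was left out, since no genome of this build was used here. The measures were checked on simulated lists with known answers. Python 3.11.15, numpy 2.4.6, pandas 2.3.3 and scipy 1.17.1 were used.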

Additional observations from a re-analysis of the deposited data

Results flagged for a closer look

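Outside the 6 chromosomes, 11 regions met the same limits of score, width and presence in both replicates, among 65 compact regions of the heterochromatic sequences and U, a share of 16.9%. They are signal in rows that the comparisons above did not use. Their scores ranged from 1.13 to 2.05 with a median of 1.36, and 3 lay on 2RHet, 3 on 3RHet, 3 on U and 2 on 3LHet.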

How the results depend on the processing

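Of 106 alternative values, 79 stayed near the reported value and 27 moved away, by limits that differed between measures. Numbers of sites were allowed a fixed factor, and shares the Wilson interval of the reported share. Median widths and percentiles were allowed the SD over the 2 replicates, and the other medians the SD over the 5 large arms. The 79 include the 14 values, given below, in which the overlap with 1 replicate list was dropped. A score limit of 1.0 gave 745 sites, 1.2 gave 250 and 1.3 gave 122. The share with another strong site within 20 kb was then 29.4%, 14.4% and 7.38% (comparison regions 29.3%, 10.2% and 4.99%), and the share with a strong nearest compact neighbour was 10.0% at 1.2 and 4.92% at 1.3 (comparison regions 5.63% and 2.77%). Median percentiles were 91.7, 97.1 and 98.7 in replicate 1 and 92.9, 97.6 and 98.9 in replicate 2. At 1.3 the median excess of replicate 2 was 0.19, the median gap to another row was 3343 bp and 100% of sites were single rows in both replicates. Comparison regions there gave 0.079, 2506 bp and 98.5%. Single rows also made up 100% of sites after merging and with 50% reciprocal overlap (comparison regions 99.7% and 100%). The reciprocal rule itself leaves almost no room for a second matching row, so that value says nothing about the sites. The share with another strong site was 16.0% within 10 kb and 39.5% within 50 kb (comparison regions 10.7% and 36.0%). The share near a broad region was 29.7% and 14.9% with width limits of 4000 and 5000 bp (comparison regions 28.1% and 12.1%). It was 14.5% with reciprocal overlap and 27.7% after merging (comparison regions 13.7% and 30.3%). Within 10 and 50 kb it was 11.2% and 37.7% (comparison regions 11.2% and 36.7%). Of 96 alternative comparisons with comparison regions, 6 lost or changed direction: the nearest compact neighbour at a limit of 1.0, broad regions at 1.0, within 10 kb and after merging, the gap after merging, and single rows with reciprocal overlap. Another strong site within 20 kb at a limit of 1.0 is not among the 6, although almost no difference was left, with 29.4% against 29.3%. In 14 of the 106 values the overlap with 1 replicate list was dropped. The combined score still held both replicates, so few sites could change and these values say nothing about stability: 456 to 457 sites, 24.29% to 24.3% with another strong site within 20 kb, 11.6% to 12.5% with a strong nearest compact neighbour, 20.2% to 21.01% with a broad region within 20 kb, and medians of 3045 to 3053 bp for width and 2631 to 2635 bp for the gap. For these shares, in the same order, comparison regions gave 18.1% to 18.2%, 8.00% to 9.36% and 18.9% to 19.6%. By the score of a single replicate, 408 compact regions reached 1.1 in replicate 1 and 797 in replicate 2. No paired analysis was possible because no result comes from a test and no list of an input was used here; replicate values are set side by side in place of one. At single strong sites the counting error of a score difference between replicates had a median of 0.135, from recovered read numbers. The part of depth in these differences was not tested.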
